A study of Mus musculus with 30 samples.

Results

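Mat2a encodes the catalytic subunit of the enzyme that makes S-adenosylmethionine, and Mettl16 encodes an RNA methyltransferase whose best known messenger RNA target is Mat2a. Their transcripts were followed through 15 lists of called N6-methyladenosine (m6A) peaks from 5 mouse embryonic stem cell lines. A list row gives 1 bin of 100 nt of an annotated Ensembl gene, and the members were all rows that carry the gene identifier of Mat2a (ENSMUSG00000053907) or of Mettl16 (ENSMUSG00000010554). They comprised 14 of the 62139 distinct bins in the 15 lists, 10 in Mat2a and 4 in Mettl16. Mat2a accounted for 75 and Mettl16 for 18 of the 204208 calls.

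m6A is a methyl mark on adenosines of RNA. Most of it in messenger RNA is placed by a complex in which METTL3 is the catalytic subunit and METTL14 its RNA-binding partner. METTL16 works apart from that complex: it methylates hairpins in the 3′ untranslated region of the Mat2a transcript and the U6 spliceosomal RNA. When S-adenosylmethionine is scarce, METTL16 stays longer on the Mat2a hairpins and promotes splicing of a retained intron, and when it is plentiful, methylation of the hairpins goes with lower Mat2a messenger RNA, so that the transcript reports on the supply of the methyl donor. The gene knocked out in this series is Mettl14, and the labels give no change to Mettl16.

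The KO+13RK and KO+5RK lines were a Mettl14 knockout to which METTL14 deficient in arginine methylation had been returned, in the forms that the labels name 13RK and 5RK. The KO+WT line was the knockout with METTL14 returned, the KO line was the knockout alone, and the WT line was wild type. All 5 lines were of the C57BL/6 strain and were grown with serum and leukemia inhibitory factor on gelatin. The sources used here do not give whether a line is 1 clone or how much METTL14 each rescue line makes. Each line had 3 libraries immunoprecipitated with a polyclonal m6A antibody and 3 input libraries, 30 in all, and each peak list belongs to 1 immunoprecipitated library. Separate cultures are not stated in the labels, and every p-value below therefore reflects the spread among these libraries alone.

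The lists differed in length, with 9588 to 10980 bins in KO+13RK, 11174 to 13013 in KO+5RK, 14187 to 17185 in KO+WT, 6328 to 8593 in KO and 22217 to 23164 in WT. Each bin carries the authors' enrichment value, whose scale is not given and which ranged from 0.31 to 5.82 with a median of 1.36 over all bins. A value is therefore read here by its percentile within its own list, except in an alternative that cuts every list at this median. Read depth is unknown, so a bin that was not called is not a bin without m6A, and a call does not report expression. Mettl14 itself had 1 bin in each of 2 KO+5RK lists and none in the other 13 lists, so its calls do not check the labels. Of 10 embryonic stem cell markers, 9 had a bin in some list and 5 to 9 were called per list. Of 7 fibroblast markers 0 to 3 were called per list. Among them Fn1 had 23 to 30 bins in the WT lists and 0 to 3 in each list of the other lines, and Fbn1 was called in the 3 KO lists only.

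Mat2a was called in all 15 lists, and its calls were concentrated at the end of the gene. Its RefSeq span is chr6:72432796-72439556 on the minus strand of GRCm38, which is 6761 nt, and 5 adjoining bins at chr6:72432800-72433299 held 70 of its 75 calls. In this block 4 bins were called in every list, including the 3 KO lists, and the fifth, nearest to the end, was called in 10 lists and in no KO list. Transcript annotation was not used here, so positions are distances from the gene end along the genome and the bins are not assigned to an untranslated region or an exon.

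The strongest Mat2a bin was chr6:72433000-72433099, which starts 204 nt from the gene end. Its enrichment values were 2.10, 2.33 and 2.30 in KO+13RK, 2.33, 1.94 and 1.74 in KO+5RK, 1.91, 2.54 and 1.84 in KO+WT, 2.51, 1.97 and 2.19 in KO, and 2.01, 2.59 and 2.20 in WT. The bin stood high in every list, between percentile 74.4 and percentile 94.0 of its own list, and the ranges of the 5 lines overlapped in these ranks. In the KO lists it stood at percentiles 90.2, 79.7 and 83.6, against 81.0, 94.0 and 85.1 in the WT lists. It had the highest value of any Mat2a bin in 14 of the 15 lists. The exception was KO+WT replicate 1, where the bin at 304 nt had 1.96 and this bin 1.91. By the deposited p it ranked within the first 3.49% of the bins of every list, and its deposited q was at most 2.067e-09.

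The 3 other constant bins flank it. The bin at 304 nt, chr6:72433100-72433199, had a median enrichment value of 1.42 over the 15 lists and lay between percentiles 23.1 and 81.9. Its lowest percentile was in KO replicate 1, while the other KO lists placed it at 70.6 and 59.2. The bin at 104 nt, chr6:72432900-72432999, had a median of 1.29, and its lowest and highest percentile, 11.5 and 76.4, were both in KO lists. The bin at 404 nt, chr6:72433200-72433299, had a median of 1.17 and ran from percentile 10.6 in KO+WT replicate 3 to 67.2 in KO replicate 2. In each of these 3 bins the range of the KO lists overlapped that of every other line. The lines did not all overlap with each other: at 304 nt the KO+5RK percentiles, 32.7 to 49.1, were below those of KO+WT, 58.6 to 81.9. At 104 nt the KO+13RK percentiles, 45.8 to 61.6, and the KO+5RK percentiles, 44.8 to 53.0, were above those of WT, 31.7 to 38.3. The enrichment values there overlapped, with 1.24, 1.39 and 1.31 in KO+13RK, 1.28, 1.37 and 1.33 in KO+5RK, and 1.24, 1.22 and 1.29 in WT. At 304 nt the values of KO+5RK and KO+WT did not overlap. The lists differ in length and the scale of the values is not given, so a gap in ranks or in values does not show a change in m6A.

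The terminal bin, chr6:72432800-72432899, starts 4 nt from the gene end and was the bin of the block that differed in calls. It was called in 2 KO+13RK lists with values of 1.30 and 1.00, in 3 KO+5RK lists with 0.90, 1.25 and 1.11, and in 2 KO+WT lists with 1.05 and 1.06. It was not called in KO, and in WT its values were 1.37, 0.88 and 1.02. Replicate 2 of KO+13RK and replicate 3 of KO+WT also lacked it. The bin was weak where it was called, between percentiles 5.75 and 51.1 of its list. Called in 0 of 3 KO lists and in 10 of the 12 others, it gave p = 0.02198 in Fisher's exact test (two-sided) and an adjusted p of 0.163 over 24770 regions, so the difference did not pass the threshold of 0.05. Of the 4117 regions called in at least 10 of the 12 other lists, 67.8% were likewise absent from all 3 KO lists.

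**Figure D1:**
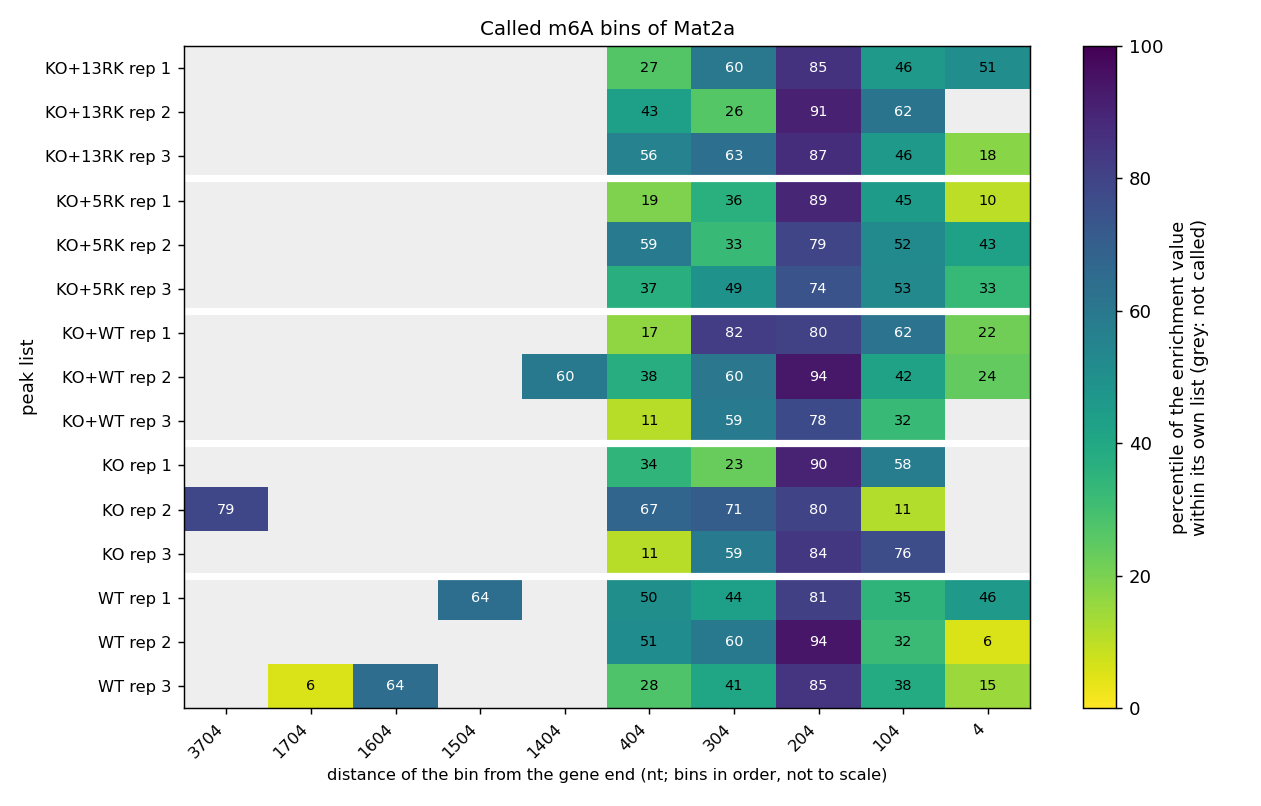
Every called bin of Mat2a (columns, by distance in nt from the gene end, in order and not to scale) in each of the 15 peak lists (rows), coloured and numbered by the percentile of its enrichment value within its own list, with grey for not called. The bins at 404, 304, 204 and 104 nt are filled in all 15 rows, the bin at 204 nt is the darkest in 14 of them, and the bin at 4 nt is empty in the 3 KO rows.

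Calls this constant were rare. Over the 15 lists, 495 of 62139 regions (0.797%) were called in every list, and 786 of 13765 genes (5.71%) had a bin in every list. Of 11334 regions found in every WT list, 1082 (9.55%) were found in every KO list as well. Only 16 of 13765 genes (0.116%) had 4 or more regions called in all 15 lists, and Mat2a was among them with 4, which adjoin each other. Each bin is counted as a region here, and adjoining bins need not be separate sites. Gm20388 had the most, with 62. Neither it nor the mitochondrial mt-Nd2, mt-Rnr1 and mt-Rnr2, also among the 16, could be placed on a RefSeq span. The others included Ncl with 17 such regions, the nuclear noncoding RNA Malat1 with 15, Hsp90ab1 with 11 and Eef2 with 7. All 4 constant regions of Mat2a lay within 500 nt of the gene end, compared with 2 of Hsp90ab1, 2 of Eef2, 1 of Pkm and 0 of the other genes that could be placed. Of the 394 constant regions that could be placed on a RefSeq span, 6.35% lay within 500 nt of the gene end and 15.5% within 500 nt of the gene start. The corresponding shares of all 56540 placed regions were 9.07% and 7.12%. The cut of 500 nt equals the length of the Mat2a block, so the count of 4 for Mat2a is not independent of it. These are descriptions of the lists, and no test was made of the position of the Mat2a calls.

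Outside the block, 5 Mat2a bins were each called in a single list. Between 1404 and 1704 nt from the gene end, 4 adjoining bins were called once each, at chr6:72434200-72434299 in KO+WT replicate 2 with a value of 1.46, at chr6:72434300-72434399 in WT replicate 1 with 1.62, and at chr6:72434400-72434499 and chr6:72434500-72434599 in WT replicate 3 with 1.65 and 0.87. All 4 calls came from lines with wild-type METTL14, but no 2 lists called the same bin. The last bin, chr6:72436500-72436599, 3704 nt from the gene end, was called in KO replicate 2 with a value of 1.94 and a deposited q of 0.0208. None of the 5 bins was called in at least 3 lists, so none entered the tests.

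The block overlaps another gene on the genome. Ggcx, which encodes the vitamin K-dependent gamma-glutamyl carboxylase, spans chr6:72414279-72433359 in RefSeq and covers the last 564 nt of the Mat2a span, the whole block included. The Mat2a bins were called on the minus strand and the bins of Ggcx on the plus strand, and the labels name a stranded library kit, although how strand was used in peak calling is not given. Ggcx had 1 bin in the 15 lists, at chr6:72430009-72430108 in KO+13RK replicate 1, outside the overlap.

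At the other end of the gene, calls on the opposite strand belonged to Particl, a long noncoding RNA whose RefSeq span, chr6:72438683-72440615, overlaps the start of Mat2a. It had 3 distinct bins and 4 calls. Its bin at chr6:72439752-72439851 was called in KO+WT replicate 3 with a value of 2.24 and in WT replicate 2 with 2.70, at percentiles 87.4 and 95.6 of those lists. The other 2 bins were called once each, at chr6:72439052-72439151 in KO replicate 1 with 2.41 and at chr6:72439252-72439351 in KO+5RK replicate 3 with 1.56. No Particl bin was called in more than 1 list of a line. The repeated bin reaches into the promoter window of 300 nt around the Mat2a start. That window, chr6:72439507-72439806 on the minus strand of GRCm38.p6 from RefSeq, is printed 5′ to 3′ along Mat2a, and the capitals mark the 55 nt that the Particl bin covers. The marked stretch, chr6:72439752-72439806, lies upstream of the Mat2a start at chr6:72439556 and so outside the Mat2a span.
Mat2a promoter window: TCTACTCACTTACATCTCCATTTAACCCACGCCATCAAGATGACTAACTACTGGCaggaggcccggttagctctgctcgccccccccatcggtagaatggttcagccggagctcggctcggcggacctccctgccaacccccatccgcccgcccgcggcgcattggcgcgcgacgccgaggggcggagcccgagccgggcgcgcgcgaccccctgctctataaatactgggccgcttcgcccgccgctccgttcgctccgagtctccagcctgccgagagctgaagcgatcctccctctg
The pentamer GGACT, a frequent m6A sequence context, was searched on both strands of all 32851 RefSeq windows of 300 nt and was found in 45.5% of them. It does not occur in this window, which says only that these letters are not in it.

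Mettl16 was called in fewer lists than Mat2a, and in none of KO+13RK. Its RefSeq span is chr11:74770815-74826855 on the plus strand of GRCm38, which is 56041 nt. Of its 18 calls, 17 fell in 3 adjoining bins at chr11:74817431-74817730, between 9125 and 9325 nt from the gene end. A bin of this block was called in 0 of 3 KO+13RK lists, 2 of 3 KO+5RK lists, 3 of 3 KO+WT lists, 0 of 3 KO lists and 3 of 3 WT lists.

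The middle bin, chr11:74817531-74817630, was called in all 8 lists that called any bin of the block. Its enrichment values were 0.88 and 0.95 in KO+5RK replicates 1 and 2, 0.96, 0.96 and 0.87 in KO+WT, and 1.21, 1.46 and 1.40 in WT, and it was not called in KO+13RK or KO. By rank within its list it stood at percentiles 8.59 and 14.7 in KO+5RK, 13.1, 14.8 and 7.15 in KO+WT, and 32.4, 51.4 and 47.4 in WT. It ranked higher in all 3 WT lists than in any list of the rescue lines. Ranks in lists of different length do not show a change in m6A.

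The 2 outer bins were called in fewer lists. The bin at chr11:74817431-74817530 had values of 0.87 and 0.81 in KO+WT replicates 1 and 2, and 0.87, 1.05 and 1.22 in WT. The bin at chr11:74817631-74817730 had a value of 0.90 in KO+WT replicate 2, and 1.45, 0.95 and 0.89 in WT. Both were called in all 3 WT lists and in no list of KO+13RK, KO+5RK or KO. The last Mettl16 bin, chr11:74805231-74805330, lay 21525 nt from the gene end and was called in KO replicate 3 only, with a value of 0.98 and a deposited q of 0.04981, close to the highest q in the lists (0.04999).

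**Figure D2:**
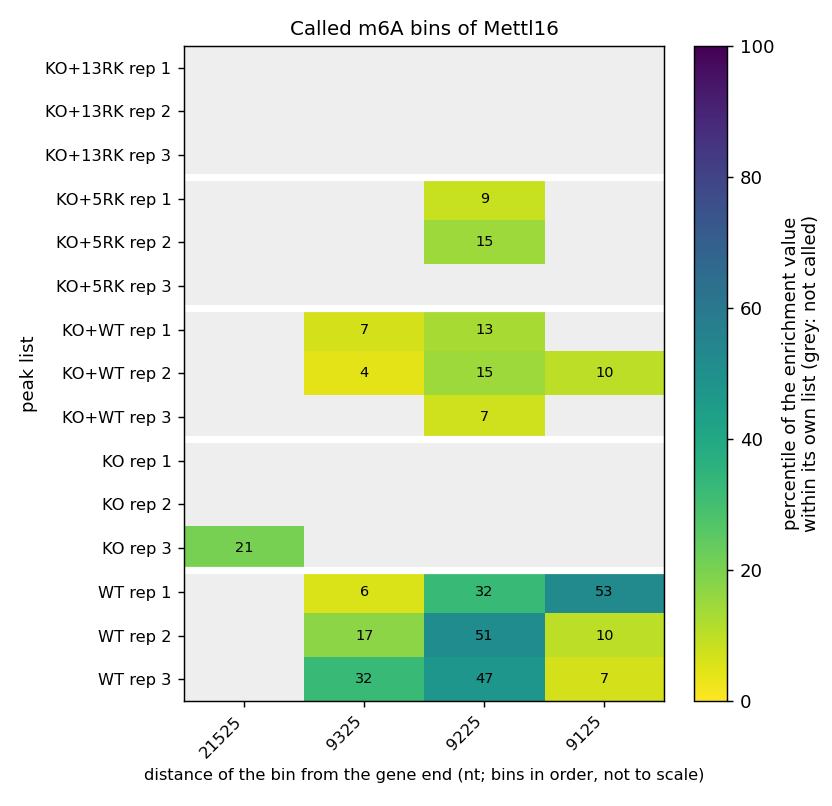
Every called bin of Mettl16 (columns, by distance in nt from the gene end, in order and not to scale) in each of the 15 peak lists (rows), coloured and numbered by the percentile of its enrichment value within its own list, with grey for not called. The block of 3 bins is filled in the 3 WT rows and in KO+WT replicate 2, partly filled in the other KO+WT rows and in 2 KO+5RK rows, and empty in KO+13RK and KO.

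The deposited q of a bin had been adjusted within its gene. Multiplying each q by the rank of its p among the bins of that gene and dividing by p gave a whole number to within 0.1 in 100% of the 39524 pairs of gene and list where that number was below 100. Read as the number of bins tested in the gene, it was 57 to 65 for Mat2a and 261 to 318 for Mettl16, against a median of 115 over all genes. A gene's only bin then needed a p of 0.000769 to 0.000877 to be listed in Mat2a, and of 0.000157 to 0.000192 in Mettl16. A call in Mettl16 thus took a smaller p than a call in Mat2a, and the numbers of bins of the 2 genes are not compared with each other here.

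The number of called bins per list was the measure tested for each gene. Mat2a had 5, 4 and 5 bins in KO+13RK, 5, 5 and 5 in KO+5RK, 5, 6 and 4 in KO+WT, 4, 5 and 4 in KO, and 6, 5 and 7 in WT. The ranges of the 5 lines overlapped, and each line had at least 1 list with 5 bins. Mettl16 had 0, 0 and 0 bins in KO+13RK, 1, 1 and 0 in KO+5RK, 2, 3 and 1 in KO+WT, 0, 0 and 1 in KO, and 3, 3 and 3 in WT. The WT lists were above every list of KO+13RK, KO+5RK and KO, and KO+WT replicate 2 equalled them.

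**Figure D3:**
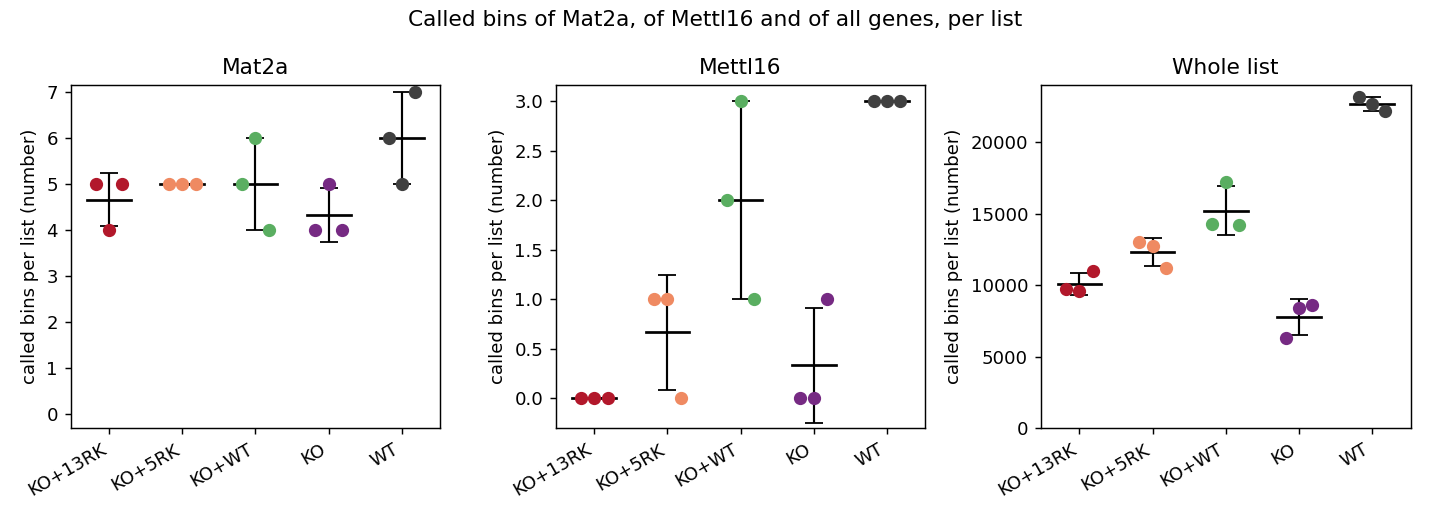
Called bins per list for Mat2a, Mettl16 and the whole list (vertical axes, number) in the 5 lines, with a dot for each list and lines for the mean and SD of 3 lists. Mat2a stays between 4 and 7 bins in every list, Mettl16 runs from 0 in KO+13RK to 3 in WT, and the whole list is shortest in KO and longest in WT.

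The comparison of KO with the 12 other lists sets the only line without METTL14 against lines that have it. Loss of METTL14 and other differences of that line cannot be told apart in it. Mat2a averaged 4.33 ± 0.577 bins per list in KO (SD, n = 3) and 5.17 ± 0.835 in the 12 other lists (SD, n = 12), a difference of -0.833. The exact permutation test over all splits of the 15 lists (two-sided) gave p = 0.2484, and p = 0.6388 after Benjamini-Hochberg adjustment over 9852 genes. With only bins at or above the median enrichment value, the sign of the Mat2a difference turned, to 0.583. Mettl16 averaged 0.333 ± 0.577 bins in KO and 1.42 ± 1.31 in the others, a difference of -1.08 with an exact permutation p of 0.2505 and an adjusted p of 0.643. The Mettl16 difference was -0.333 in lists of equal length, -0.583 at a q under 0.005 and -0.25 at or above the median value. Neither difference passed the threshold in this test, and 0 of 9852 genes (0%) passed it in either direction. An exact permutation test of 3 against 12 lists cannot go below p = 0.0021978. After adjustment over 9852 genes, a pass therefore needs many genes near that floor at once. That 0 genes passed does not show that no gene differed. The smallest adjusted p was 0.05653, and at an unadjusted p under 0.05 there were 1296 genes (13.2%) with fewer bins in KO and 214 (2.17%) with more.

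Region by region, KO called 1180 of 24770 regions (4.76%) less often than the 12 other lists and 260 (1.05%) more often, at an adjusted p under 0.05 in Fisher's exact test. No region of Mat2a or Mettl16 was among them. Without any one of the 3 KO lists, no region passed. The 4 constant Mat2a bins were called in 3 of 3 KO lists and in 12 of 12 others. The middle Mettl16 bin was called in 0 of 3 KO lists and 8 of 12 others (p = 0.07692, adjusted p = 0.3227, Fisher's exact test), and the outer bins in 0 of 3 KO lists and 5 or 4 of 12 others (adjusted p = 0.7672 for both).

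The comparison of the arginine mutants with wild-type METTL14 set the 6 KO+13RK and KO+5RK lists against the 6 KO+WT and WT lists. Each side pools 2 lines, and the WT line is not a rescue line and had the longest lists. For Mettl16 the WT lists had 3, 3 and 3 bins and the KO+WT lists 2, 3 and 1. The mutation and other differences between the lines cannot be told apart, so the p-values compare sets of lists. Mat2a averaged 4.83 ± 0.408 bins with mutant METTL14 and 5.5 ± 1.05 with wild-type METTL14 (SD, n = 6 each), a difference of -0.667 with an exact permutation p of 0.3182. In lists cut to equal length, the sign of the Mat2a difference turned, to 1.33. Mettl16 averaged 0.333 ± 0.516 bins with mutant METTL14 and 2.5 ± 0.837 with wild-type METTL14, a difference of -2.17 with an exact permutation p of 0.006494. Every mutant list had 0 or 1 Mettl16 bins and every wild-type list had 1 to 3. After adjustment over 9257 genes the p of Mettl16 was 0.1838 and that of Mat2a 0.6861, and neither passed. No gene of the 9257 did (0%), with a smallest adjusted p of 0.1284. With 6 against 6 lists the exact permutation p cannot go below 0.0021645, so a pass again needs many genes near that floor. The 0 does not show that no gene differed. At an unadjusted p under 0.05, 1368 genes (14.8%) had fewer bins with mutant METTL14 and 29 (0.313%) had more. The mutant lists were also shorter as a whole. In lists cut to equal length the Mettl16 difference was -1 (adjusted p = 0.6948), with only bins of q under 0.005 it was -1.17, and with only bins at or above the median enrichment value it was -0.5, each in the same exact permutation test.

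By region, 0 of 22615 (0%) differed between mutant and wild-type METTL14 at an adjusted p under 0.05 in Fisher's exact test, and at an unadjusted p under 0.05 there were 869 (3.84%) called less often with mutant METTL14 and 24 (0.106%) called more often. Fisher's exact test of 6 against 6 lists has the same floor, p = 0.0021645, so the same limit holds. The terminal Mat2a bin was called in 5 of 6 mutant and 5 of 6 wild-type lists. The Mettl16 bin at chr11:74817431-74817530 was called in 0 of 6 mutant and 5 of 6 wild-type lists, with p = 0.01515 and an adjusted p of 0.3837 in Fisher's exact test. The middle bin was called in 2 of 6 and 6 of 6, and the bin at chr11:74817631-74817730 in 0 of 6 and 4 of 6, each with an adjusted p of 0.561 in the same exact test.

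Pairs of lines have 3 lists each, and an exact permutation test of 3 against 3 cannot go below p = 0.1. The pairs share lists, so their values are given side by side and are not independent. In KO against WT, the difference in mean bins was -1.67 for Mat2a (p = 0.2) and -2.67 for Mettl16 (p = 0.1, the smallest possible) in the exact permutation test. In KO+WT against KO, the differences were 0.667 bins for Mat2a (p = 0.7) and 1.67 for Mettl16 (p = 0.2) in the exact permutation test. In KO+5RK against KO+WT, they were 0 for Mat2a (p = 1) and -1.33 for Mettl16 (p = 0.3) in the same exact test. In KO+13RK against KO+WT, they were -0.333 for Mat2a (p = 1) and -2 for Mettl16 (p = 0.1) in the exact test. In KO+WT against WT, they were -1 for both genes, with exact p of 0.5 for Mat2a and 0.4 for Mettl16. In KO+13RK against KO+5RK, they were -0.333 for Mat2a (p = 1) and -0.667 for Mettl16 (p = 0.4) in the exact test. For Mat2a the sign turned in lists of equal length in KO against WT, KO+13RK against KO+WT and KO+WT against WT, and under other settings in KO+WT against KO and KO+13RK against KO+5RK. For Mettl16 the difference in KO+13RK against KO+WT was -0.667 in lists of equal length, -0.333 at a q under 0.005 and 0 at or above the median value. In KO against WT it was -1.33, -2 and -1 under the same settings.

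By a count of 3 lists against 0, Mat2a as a gene was lost in no pair of lines, and 1 of its regions, the terminal bin, was called in 3 WT lists and 0 KO lists. All 3 block regions of Mettl16 were called in 3 WT lists and 0 KO lists, a count that 9089 of 11334 regions (80.2%) met. The gene Mettl16 did not count as lost in KO because of its distant bin in KO replicate 3, while 1775 of 5631 genes (31.5%) did. The middle Mettl16 bin was called in 3 KO+WT lists and in none of KO, as were 4445 of 6220 regions (71.5%). It was also missing from all 3 KO+13RK lists, as were 1044 of 6220 regions called in 3 KO+WT lists (16.8%). Mettl16 counted as a lost gene in KO+13RK against KO+WT, with 288 of 4005 genes (7.19%). In KO+5RK against KO+WT it was not lost, and 112 of 4005 genes (2.8%) were. Mettl16 was one of 758 of 11006 genes (6.89%) with fewer bins in every KO+13RK list than in any KO+WT list, and of 3356 of 11712 (28.7%) with fewer in every KO list than in any WT list.

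The genes whose bin numbers were most like those of the pair were found by the smallest sum of absolute differences over the 15 lists, as a description. Ties were ordered by the higher Pearson's r of the same numbers. For Mat2a they were Cbx7 with a sum of 10, Gabpb2 with 12, Slc1a5 with 13, Oxsr1 with 14 and Usp9x with 15. Cbx7, a Polycomb chromobox protein, had 13, 12, 13, 13 and 14 bins over the 3 lists of KO+13RK, KO+5RK, KO+WT, KO and WT. Usp9x, a deubiquitinase, had 14, 14, 18, 7 and 19 in the same order with its largest difference from Mat2a in KO. For Mettl16 the closest were Dlgap4 and Tnfrsf10b, each with a sum of 4, and Gne, Ktn1 and Slc43a2, each with 5. Dlgap4 had 0, 0, 5, 0 and 9 bins and Gne, an enzyme of sialic acid synthesis, 0, 3, 5, 0 and 7 in that order. All 5 genes close to Mettl16 had no bin in KO. Pearson's r of their bin numbers with Mettl16 was 0.896 to 0.935 over the 15 lists. For the genes close to Mat2a, r with Mat2a was 0.319 to 0.762. The genes were picked on these same numbers, so their likeness follows from the choice and the ranges of r are not compared. The lists differ in length, which all genes share.

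Around Mat2a stand the enzymes of the S-adenosylmethionine cycle, of the folate cycle that feeds it and of methionine salvage. Of 36 genes listed, 26 had a bin in some list, and Mat1a, the subunit typical of liver, had none. The symbol Samtor was not matched, so its calls are unknown. Members called per list averaged 12.7 ± 0.577 in KO+13RK, 14 ± 2.65 in KO+5RK, 15.7 ± 1.53 in KO+WT, 11.3 ± 0.577 in KO and 18 ± 2 in WT (SD, n = 3 lists each). All 3 KO lists were below every WT list, as they were in genes of any kind, with 3697 to 4733 genes in the KO lists and 7788 to 7896 in the WT lists. Among the 13 members with a bin in every WT list, 3 (23.1%) were in no KO list, beside 31.5% of all genes, and of 7 called in all 3 KO lists none was absent from WT, beside 4.89% of all genes. The lost share was 40% at a q under 0.005, beside 54% of all genes, and 50% at or above the median value, beside 47.9%, so that its order against all genes turned.

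The lost members included Mat2b and Mtr. Mat2b, the regulatory partner of the Mat2a protein, averaged 0.667 bins in KO+13RK, 1.67 in KO+5RK, 1.00 in KO+WT, 0 in KO and 1.33 in WT, and it was called in all 9 lists of KO+5RK, KO+WT and WT. Mtr, methionine synthase, had 1 bin in each WT list and none in any other list. The KO+WT line thus called Mat2b in 3 lists and Mtr in none.

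Besides Mat2a, the members called in all 15 lists were Enoph1, an enzyme of methionine salvage, and Cth, which makes cysteine by transsulfuration. Enoph1 averaged 2.33 bins in KO+13RK, 2.00 in KO+5RK, 2.67 in KO+WT, 2.00 in KO and 4.00 in WT. Cth averaged 1.00, 1.67, 1.33, 1.67 and 2.67 in the same order of lines. Mat2a was the member with the most bins in KO, at 4.33. No member passed the test of bins per gene in KO against the 12 others, and at an unadjusted p under 0.05, 3 of the 25 tested (Mat2b, Mtrr and Mtap) had fewer bins, beside 13.2% of all genes, and 1 (Mmachc) had more, beside 2.17%. By region, 1 of the 26 members, the serine hydroxymethyltransferase Shmt1, had a region called less often in KO, beside 4.76% of all regions tested. Another, the cobalamin-processing protein Mmachc, had a region called more often, beside 1.05%. These are calls at an adjusted p under 0.05 in Fisher's exact test, and a share per gene was not computed. Mmachc had 1, 2 and 1 bins in KO, 0 in the KO+13RK and KO+5RK lists, and 1 in a single list each of KO+WT and WT. In mutant against wild-type METTL14 none of the 24 members tested passed, and at an unadjusted p under 0.05, Cbs and Shmt1 had fewer bins with mutant METTL14, and the members with more included Mri1. Over all genes 14.8% had fewer bins and 0.313% more at that p.

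**Figure D4:**
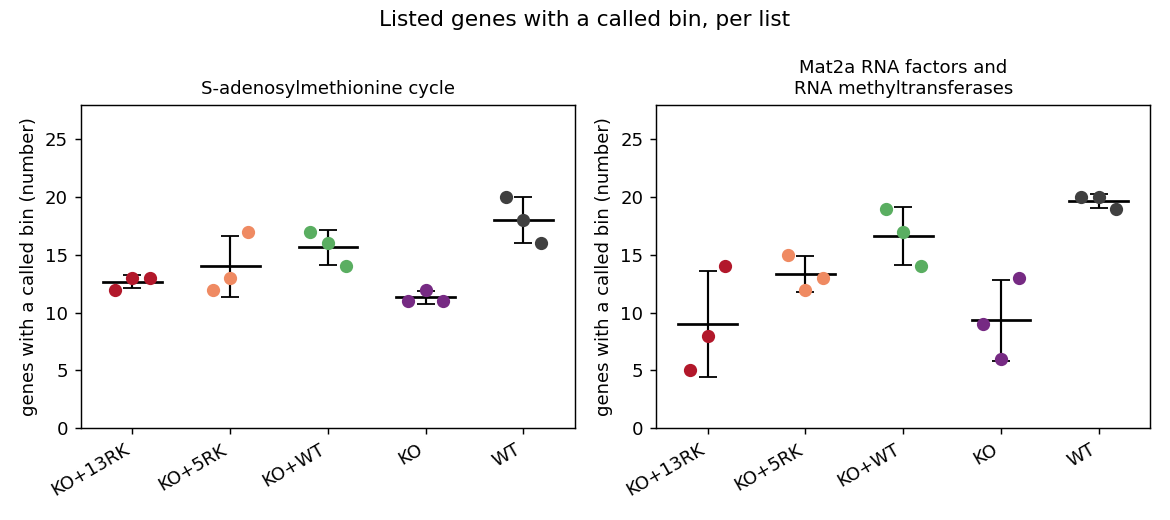
Genes of the S-adenosylmethionine cycle list (left) and of the list of Mat2a RNA factors and RNA methyltransferases (right) with a called bin, per list (vertical axes, number), in the 5 lines, with a dot for each list and lines for the mean and SD of 3 lists. In both panels the KO lists lie below every WT list, as in the number of genes of the whole lists, and the right panel spreads from 5 to 14 genes among the KO+13RK lists.

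Around Mettl16 stand the factors that read or process Mat2a RNA and other enzymes that methylate or demethylate RNA. Of 30 genes listed, 28 had a bin in some list. Members called per list averaged 9 ± 4.58 in KO+13RK, 13.3 ± 1.53 in KO+5RK, 16.7 ± 2.52 in KO+WT, 9.33 ± 3.51 in KO and 19.7 ± 0.577 in WT (SD, n = 3 lists each). None of the 28 was called in all 15 lists. Among the 15 members with a bin in every WT list, 7 (46.7%) were in no KO list, beside 31.5% of all genes, and of 13 called in all 3 KO+WT lists, 6 were in no KO list, beside 25.7% of all genes. Lists cut to an equal length left 3 lost members of 4, beside 27.5% of all genes. The lost share was 72.7% at a q under 0.005, beside 54% of all genes, and 87.5% at or above the median value, beside 47.9%. Of the same 13, 3 (Mettl16, Trmt6 and Emg1) were in no KO+13RK list, beside 7.19% of all genes, and 0 were absent from all KO+5RK lists, beside 2.8%.

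The lost members were Zcchc4, Fto, Mettl2, Nsun6, Mettl4, Mettl8 and Emg1. Zcchc4, which methylates ribosomal RNA, averaged 0.333 bins in KO+13RK, 2.00 in KO+5RK, 3.00 in KO+WT, 0 in KO and 7 in WT. Fto, an RNA demethylase, averaged 0.667, 2.33, 3.00, 0 and 4.00 in the same order of lines. Nsun6, a cytosine methyltransferase of RNA, averaged 2.00, 1.00, 2.00, 0 and 1.67, and Mettl8, which methylates mitochondrial transfer RNA, 0.667, 1.00, 1.67, 0 and 1.67. Mettl2, a transfer RNA methyltransferase, and Mettl4, an adenosine methyltransferase, were called in every list except those of KO. Each had 1 region that was called less often in KO at an adjusted p under 0.05 in Fisher's exact test. They were 2 of the 28 members, beside 4.76% of all regions tested, and a share per gene was not computed. No region passed when any KO list was left out. Emg1, a methyltransferase of ribosome biogenesis, had 0, 0.333, 1.33, 0 and 1.33 bins. By bins per gene no member passed in KO against the 12 others, and 2 of the 23 tested (Mettl2 and Mettl4) had fewer bins at an unadjusted p under 0.05, beside 13.2% of all genes. In mutant against wild-type METTL14 none of 21 passed, and 5 (Mettl16, Zcchc4, Mepce, Nsun2 and Emg1) had fewer bins at an unadjusted p under 0.05, beside 14.8% of all genes.

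Among factors that act on Mat2a RNA, Ythdc1, a nuclear m6A reader, was called in 1 KO+13RK, 2 KO+5RK, 1 KO+WT, 2 KO and 1 WT list. Nudt21, a subunit of the cleavage factor that takes part in Mat2a processing, was called in 1 KO+5RK and 1 WT list. With calls in 1 WT list each, neither Ythdc1 nor Nudt21 could count as lost. The Nudt21 partners Cpsf6 and Cpsf7 were each called in all 3 lists of KO, KO+WT and WT. Cpsf6 was called in 3 KO+13RK and 2 KO+5RK lists, and Cpsf7 in 2 and 3.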

How the data were processed

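Per the labels' protocols, fragmented messenger RNA was pulled down with an m6A antibody and sequenced as stranded libraries. STAR 2.5.3a, kallisto 0.43.0 and the build GRCm38 are named, without roles, in the submitters' processing notes. The names of the deposited lists contain clam_peak, and the sources used here do not otherwise state the peak caller. Each deposited list belongs to 1 library and gives, for each bin, a score of the authors' own (the enrichment value), a p-value and a q-value, all listed q being under 0.05. The score was used only within a list.

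From the lists, bins per gene and calls per region were computed with Python 3.11.15, numpy 2.4.6, pandas 2.3.3 and scipy 1.17.1. Within a gene, bins were either identical or apart, so a region is a bin. Genes and regions called in at least 3 lists were tested by two-sided exact permutation tests of bins per list and by Fisher's exact tests of calls, each adjusted by the Benjamini-Hochberg method over all of them at a threshold of 0.05, with no covariate. The permutation step was tested on simulated data. Lost genes or regions were those called in all 3 lists of the second line of a pair and in none of the first. Symbols matched 13730 of 13765 genes (99.7%). Positions used RefSeq spans of the same build, and near an end means within 500 nt. Input libraries were not analysed here, depth is unknown, and no interval is given.

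The members and both gene lists were chosen with earlier results of these data known. Named list members are those lost or gained in KO against WT, up to 6 by mean bins, and those called in all 15 lists. Others named were chosen after their values were seen, as were the members with a region past the threshold. Alternatives were a q under 0.005, an enrichment value at or above 1.36, lists cut to the 6328 bins of smallest p, each list left out, and the replicate number as a block. For the 2 gene lists the first 3 of these were added after the data had been seen. Some members of the gene lists are not reported here by name.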

Additional observations from a re-analysis of the deposited data

How the results depend on the processing

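No difference in bins per list of Mat2a or Mettl16 passed 0.05 under any alternative tried, which for pairs of lines the smallest p of 0.1 fixes in advance. No Mettl16 difference changed sign, but most shrank: in mutant against wild-type METTL14 it ran from -2.47 to -0.5 over all alternatives, and at the median value KO+WT against KO, KO+5RK against KO+WT and KO+13RK against KO+WT were 0. At equal length KO+WT against KO and KO+5RK against KO+WT were 0.333 and -0.333. The Mat2a bins at 204 and 304 nt were called in all 15 lists at a q under 0.005 and in lists of equal length. With enrichment values at or above the median, 15 lists kept the bin at 204 nt, 8 that at 304 nt, 5 each those at 104 and 404 nt, and 1 the terminal bin. The middle Mettl16 bin was called in 4 lists at the stricter q, 6 at equal length and 2 at the median value. Mat2a differences changed sign in 9 cases, and the cause was not tested. At the stricter q, KO+13RK against KO+WT was 0.333. At the median value, KO against the 12 others was 0.583, KO+WT against KO -0.333, and KO+13RK against KO+5RK 0.667. At equal length, mutant against wild-type METTL14 was 1.33, KO against WT 0.333, KO+13RK against KO+WT 1.00, and KO+WT against WT 0.333. Leaving out each list gave -0.833 to 0.167 for Mat2a in KO+13RK against KO+WT, positive without KO+WT replicate 2, and -2.47 to -2.07 for Mettl16 in mutant against wild-type METTL14. Regions differing in KO from the 12 others numbered 1440 as reported, 690 at the stricter q, 0 at the median value and 0 to 1654 with each list left out. The 0 came without any 1 KO list, since fewer KO lists raise the smallest p. Lost members of the second gene list numbered 3 at equal length. Correlations of same-numbered lists ran from -0.699 to 0.484, 9 of 30 were over 0.1, and 2 of 15 lists correlated best with their own number. Lists with other numbers reached 0.785, for KO+13RK replicate 2 with KO+5RK replicate 1. Pairing by replicate number was thus not seen, and whether lists shared a preparation was not tested. With the replicate block, Mettl16 in mutant against wild-type METTL14 kept its difference of -2.17, with an adjusted exact permutation p of 0.3039. Depth is unknown, so how far it limits the weaker calls cannot be given.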
